A study of Rattus norvegicus with 14 samples.

Results

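The interval from 5 to 11 Mb on rat chromosome 17 held 1223 of the 194367 windows of 1 kb in which DNA methylation was given, in coordinates of the rn7 build. A window belonged to it if its start was over 5000000 and its end at most 11000000. Of these windows 883 had a value in all 14 samples, and all results are for these 883 unless stated. The interval was chosen by the line differences of its windows in earlier results of the same data. The differences below therefore describe it and are not a test of it. Just inside its proximal border, the window at 5002001 to 5003000 was methylated to 18.2% in HCR and 16.8% in LCR. Just outside lay 4996001 to 4997000, with means of 0.916% in HCR and 0.951% in LCR. The last window inside, at 10998001 to 10999000, averaged 46.7% over 4 HCR samples and 51.99% over 7 LCR samples. Beyond the border, 11007001 to 11008000 averaged 67.1% in HCR and 67.02% in LCR.

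The samples were left soleus muscles of female rats aged 23 to 24 months, from generation 44 of lines bred for running capacity out of the genetically heterogeneous N:NIH stock. There were 6 samples of the high-running capacity line (HCR) and 8 of the low-running capacity line (LCR), all kept on standard chow. Methylation was read by reduced representation bisulfite sequencing (RRBS), in which MspI cuts at CCGG sites and bisulfite converts unmethylated cytosines, so that CpG-rich sequence is mostly covered. The lines were selected as breeding populations, so HCR and LCR differ in many inherited alleles at once. Nothing in the labels says that each sample came from a different rat, and spreads may then be partly technical.

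In mammals, cytosines followed by guanine are mostly methylated, while CpG-rich promoters are typically free of methylation. Between these states lie regions of middle level, where cells or alleles of a sample differ. Muscle is a mixture of fibres and other cells, so a changed level in a cell type and a changed share of that cell type cannot be told apart. A DNA sequence variant that removes or creates a CpG also changes what bisulfite sequencing reads at that site. Genotypes were not analysed here. The soleus is a postural muscle rich in slow fibres; the tissue label could not be checked, because windows carry no gene names. Gene positions on rn7 were not used here, so every window is given by its position.

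The interval was more often of middle methylation than the file as a whole. Its windows averaged 37.9%, against 35.3% over all 135802 windows with a value in every sample. Windows under 10% made up 20.3% of it (179 windows), against 26.6% over all windows. Windows at 70% or more made up 9.63% (85 windows) against 10.8%. The 179 low windows fell into 113 runs, of which 60 were single windows, and the longest run was of 4 kb at 6506001 to 6510000. Its mean level was 1.06% over the HCR samples (SD 0.422, n = 6) and 0.942% over the LCR samples (SD 0.334, n = 8). Over all 1223 windows, including those without a value in some samples, neighbours were 3 kb apart in the median, 414 pairs were adjacent, and the largest step was 94 kb, between the windows starting at 9329001 and 9423001.

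Mean methylation over the interval was higher in HCR by about as much as over the autosomes. The HCR samples had 36.2% at the lowest, 38.7% in the median and 39.9% at the highest, and the LCR samples had 35.8%, 37.3% and 39.3%. The lines overlapped over most of their range. The mean difference was 1.24 percentage points (SE 0.676), and that of the autosomal means was 1.13 points (SE 0.544). With each library centred on its autosomal mean, the samples lay closer together, at 37.3 to 38.3% in HCR and 37.4 to 38.1% in LCR, and the difference was 0.109 points (SE 0.173). HCR had the higher mean in 62.6% of the windows as deposited and in 42.7% after centring, against 64.6% and 41.2% over all windows. Centring subtracts 1 value per library from every window, so it also shifts windows near 0, which had little library difference to remove.

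Along the interval, HCR minus LCR was larger in the bins of 500 kb at 6.5 to 7 Mb and 7.5 to 10 Mb than elsewhere. As deposited, the difference was between 1.62 and 2.32 points in the 5 bins from 7.5 to 10 Mb, and largest at 8 to 8.5 Mb (2.32 points, SE 0.891); the bin at 6.5 to 7 Mb had 1.86 points (SE 0.809). It was 0.00482 points (SE 0.979) at 6 to 6.5 Mb, -0.300 points (SE 0.664) at 10 to 10.5 Mb and -0.0995 points (SE 0.826) at 10.5 to 11 Mb. After centring, the same 5 bins stood at 0.491 to 1.19 points and the last ones at -1.43 (SE 0.307) and -1.23 points (SE 0.525). The bin at 6 to 6.5 Mb was nearly as low, at -1.13 points (SE 0.639). Those at 5 to 5.5 Mb and 7 to 7.5 Mb stood at -0.745 and -0.406 points. At 10 to 10.5 Mb the centred means of the HCR samples were 32.5 to 34.59%, and those of the LCR samples were 34.61 to 35.9%, nearly touching but without overlap. In that bin 25.4% of windows were under 10%, close to the share over all windows. The lines did overlap there without the single called window it holds, and the difference was then -1.14 points. In the other bins the lines overlapped, deposited and centred. How many bins of other chromosomes had no overlap was not counted, so the bin at 10 to 10.5 Mb cannot be set apart.

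In 13 of the 883 windows the lines differed by limma at a Benjamini-Hochberg adjusted p under 0.05 over all windows of the file, 11 higher and 2 lower in HCR. That is 1.47% of the interval, and the share called over all windows was 0.569%, with 0.405% higher and 0.164% lower in HCR. On the rest of chromosome 17, 27 of 3695 windows were called (0.731%). Since this contrast led to the choice of the interval, its larger share is a restatement of that choice. The same 13 windows were called after centring, when 0.514% of all windows were called (0.276% higher and 0.238% lower in HCR). The count was 7 when the variance was not moderated across windows, and 2 with the replicate number as a block, which used the 12 samples numbered 1 to 6. The shares called over all windows were then 0.468% and 0.0523%. Leaving out a sample changed the count: it was 8 without HCR replicate 5 and 15 without LCR replicate 1. Over all windows 0.416% and 0.493% were called in these 2 fits. Of the 13 windows 6 were called in each of the 14 fits that left out a sample.

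In 10 windows the lines were fully separated, every HCR sample lying above or every HCR sample lying below all LCR samples. Of these, 9 were higher and 1 was lower in HCR, together 1.13% of the interval, against 0.71% over all windows (0.558% higher and 0.152% lower). The rest of chromosome 17 was close to this, with 38 separated windows (1.03%), 34 of them higher in HCR. After centring, 9 windows were separated in the interval, 7 higher and 2 lower (1.02%), against 0.553% over all windows (0.319% higher and 0.234% lower). The rest of the chromosome then held 20 (0.541%). Of the separated windows 8 were separated on both scales. Without HCR replicate 1 or without HCR replicate 4 the deposited count was 17 (1.93% of the interval), against 1.09% and 0.959% over all windows. Leaving out a sample cannot lower this count, and without LCR replicate 3, 4 or 6 it stayed at 10. In all, 15 windows were called or separated, 8 of them both, 2 only separated and 5 only called. These last 5 are not covered by the rule for naming windows and were chosen after their values were seen.

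**Figure D1:**
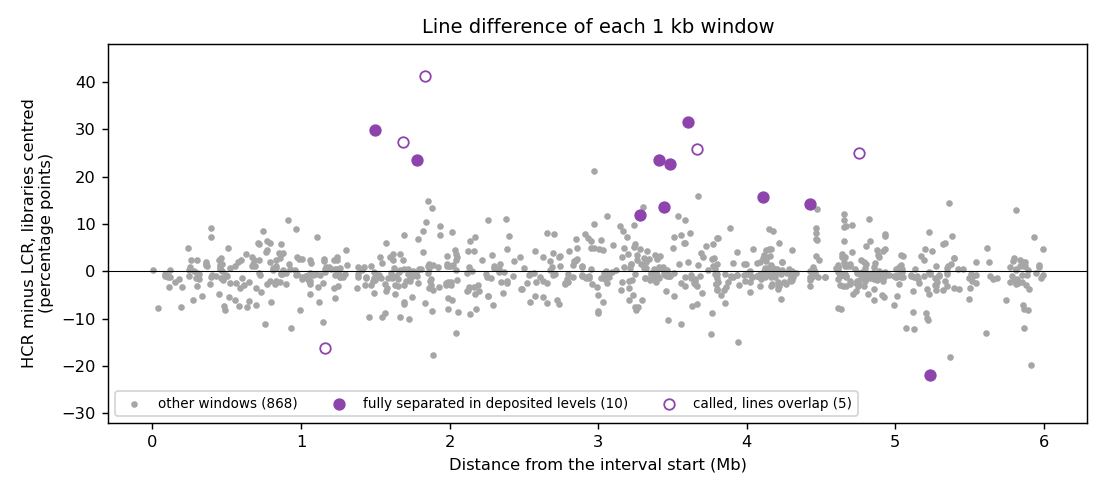
Difference between the lines (HCR minus LCR, libraries centred, percentage points) of each of the 883 windows against its distance from the interval start in Mb. Filled purple points are the 10 windows separated in deposited levels, open points are the 5 called windows in which the lines overlap, and grey points are the other 868; 13 of the 15 purple points lie above 0.

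Joining these windows where at most 400 kb apart gave 3 groups and a single window. Another limit can give other groups, and the grouping serves only to order the description. Each group starts and ends at a called or separated window, which raises its share of them. Over the whole interval they were 15 of 883. The first group lay between 6164001 and 6834000, where 5 of 100 measured windows were called or separated. The window at 6500001 to 6501000 had 57.8%, 61.4% and 72.3% as lowest, median and highest level in HCR and 22.1%, 29.2% and 45.3% in LCR. Its lines were 12.5 points apart at the nearest samples, the widest gap in the interval, and its means differed by 30.9 points (SE 4.21), or 1.86 on the log2 logit scale (SE 0.27). In the window at 6783001 to 6784000 the HCR samples had 37.9%, 44.95% and 64.7%, and the LCR samples 13.3%, 24.8% and 36.5%. The HCR samples formed an upper pair, replicates 4 and 6 at 62.5% and 64.7%, and a lower set of 4 at 37.9 to 49.2%. The difference was 24.7 points (SE 5.42). The gap of 1.32 points closed after centring, when LCR replicate 8 and HCR replicate 5 overlapped.

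The other 3 windows of this group were called with overlapping lines. The window at 6833001 to 6834000 had the largest difference of the interval, 42.3 points (SE 7.06). HCR samples had 29.8%, 56.2% and 72.2%, and LCR samples 0.763%, 8.38% and 32.2%. LCR replicates 1, 4 and 5 were nearly unmethylated, at 0.763%, 3.93% and 2.56%, and the overlap came from HCR replicate 4 at 29.8% and LCR replicate 8 at 32.2%. At 6685001 to 6686000 HCR samples had 63.2%, 69.4% and 77.4%, and LCR samples 25.5%, 38.2% and 71.8%. Only LCR replicate 7, at 71.8%, reached the HCR levels there; the next LCR sample stood at 50.2%, and without LCR replicate 7 the difference was 32.8 points, against 28.5 points with it (SE 5.57). At 6164001 to 6165000 the direction was the opposite: HCR samples had 37.7%, 46.7% and 52.7%, and LCR samples 52.4%, 60.7% and 70.03%. The difference was -15.2 points as deposited (SE 3.18), with lines that overlapped by 0.312 points. After centring the lines were separated and the difference was -16.3 points.

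Calls in this first group were lost in some fits that left out 1 sample, except at 6500001. In these fits the share called over all windows also fell, to between 0.365% and 0.493%, against 0.569% with all samples. The call at 6833001 was lost without HCR replicate 2 or 5, while its difference stayed between 38.7 and 47.2 points over all left-out samples. The call at 6783001 was lost in 7 of 14 such fits, without HCR replicates 3, 4 or 6 or LCR replicates 2, 3, 5 or 6, with differences of 21.6 to 26.9 points. At 6685001 the call was kept in 2 of 14 fits, without LCR replicate 3 or 7 (26.2 to 32.8 points over all fits). At 6164001 it was kept in 3, without HCR replicate 2 or LCR replicates 1 or 2 (-16.7 to -13.7 points over all fits).

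The middle group lay between 8280001 and 8665000, where 6 of 73 measured windows were called or separated within 385 kb, all higher in HCR. The window at 8603001 to 8604000 had 59.7%, 66.6% and 70.5% in HCR and 24.8%, 31.7% and 49.9% in LCR. This was the largest difference among the separated windows, 32.6 points (SE 3.43), or 1.94 on the log2 logit scale (SE 0.22). LCR replicate 5 was the nearest to HCR, and the other LCR samples lay at 37.2% or less. At 8410001 to 8411000 the levels were 44.1%, 55.5% and 58.5% in HCR and 17.2%, 28.2% and 39.97% in LCR, a difference of 24.6 points (SE 3.75). At 8443001 to 8444000 both lines were low and tightly grouped, with 27.8%, 32.9% and 35.7% in HCR and 9.92%, 18.1% and 23.8% in LCR. The difference was 14.6 points (SE 1.99), the smallest SE of the 15 windows.

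Highly methylated DNA in HCR was seen at 8486001 to 8487000, where HCR samples had 77.7%, 79.8% and 100% and LCR samples 47.6%, 61.03% and 73.3%. HCR replicate 3 at 100% and replicate 6 at 93.3% stood above the other HCR samples, which lay between 77.7% and 80.7%. The window was separated, with a difference of 23.7 points (SE 4.88), but not called, and its log2 logit difference of 2.29 had the SE 0.63. At 8280001 to 8281000 HCR samples had 41.9%, 49.2% and 59.4%, and LCR samples lay close together at 33.7%, 36.3% and 40.5%. It too was not called, and its gap of 1.32 points closed after centring. The window at 8664001 to 8665000 was called with lines that touched: HCR samples had 20.4%, 39.5% and 53.7%, and LCR samples 8.87%, 12.4% and 20.4%. HCR replicate 6, at 20.4%, was level with LCR replicate 5, and the other HCR samples lay at 37.7% or more. Of the called windows in this group the one at 8443001 lost its call without HCR replicates 1, 4 or 5 (13.5 to 15.6 points over all left-out samples), and those at 8410001, 8603001 and 8664001 were called in all 14 fits.

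The distal group ran from 9111001 to 9757000 and was sparser, with 3 of 126 measured windows called or separated, all higher in HCR. At 9111001 to 9112000 HCR samples had 45.3%, 51.6% and 59.8%, and LCR samples 27.2%, 35.2% and 40.1%, a difference of 16.9 points (SE 2.62). At 9428001 to 9429000 the LCR samples were nearly alike, 7 of 8 lying between 53.2% and 55.1% and LCR replicate 8 at 46.96%. HCR samples there had 59.1%, 67.8% and 80.1%, and the difference was 15.2 points (SE 3.07). The call at 9428001 was lost without HCR replicate 1 or 3 (12.9 to 17.1 points over all left-out samples). At 9756001 to 9757000 HCR samples had 40.4%, 57.8% and 69.05%, and LCR samples 16.5%, 32.5% and 42.4%. HCR replicate 4 lay below LCR replicates 1 and 5, and the call was kept in 3 of 14 fits, without HCR replicate 4 or LCR replicates 1 or 5 (23.4 to 29.1 points over all fits).

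Lower methylation in HCR with full separation was found in a single window of the interval, at 10232001 to 10233000. Its HCR samples had 11.1%, 17.98% and 21.8%, and its LCR samples 24.9%, 39.2% and 47.4%. The lines were 3.05 points apart at HCR replicate 2 and LCR replicate 5, and the difference was -20.7 points (SE 3.39), or -1.54 on the log2 logit scale (SE 0.26). It was called in all 14 fits that left out a sample.

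**Figure D2:**
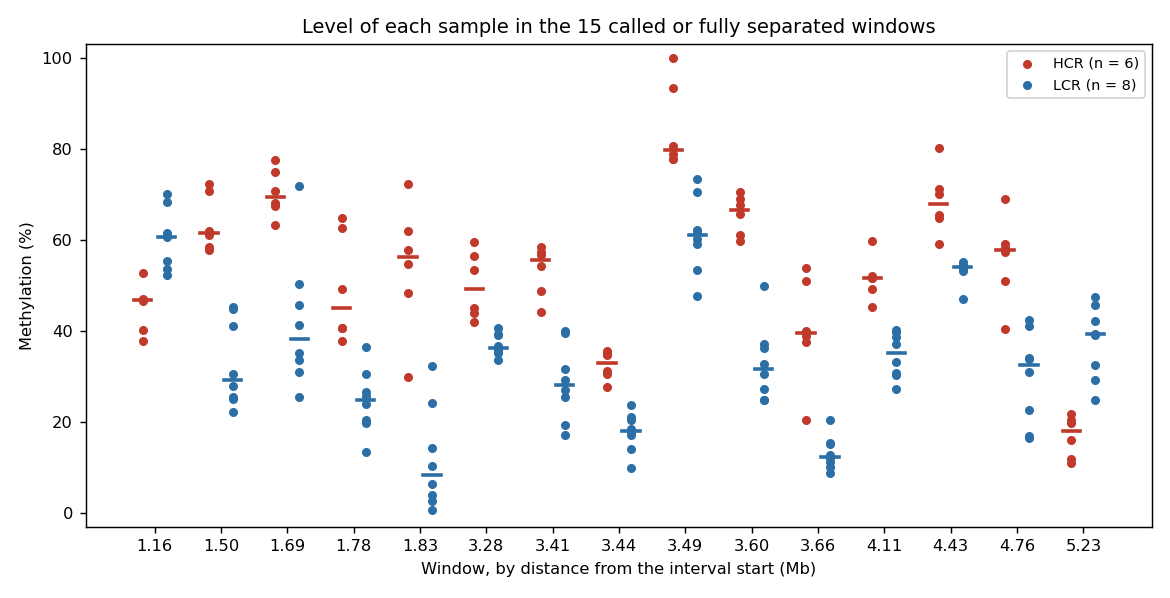
Methylation level (%) of each sample in the 15 called or separated windows, in genomic order and named by their distance from the interval start in Mb; HCR samples (red, n = 6) stand left of LCR samples (blue, n = 8), and bars are medians. HCR lies higher in 13 windows and lower in the first and the last, and LCR is at 0.763% to 32.2% in the window with the largest difference.

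The windows next to these 15 differed much less. The 15 were picked by their line differences and their neighbours were not, so part of this contrast was built in. How local the differences are was not tested. The nearest measured window on each side, 1 to 17 kb away (median 3.5 kb), differed by -8.52 to 9.73 points, with a median size of 1.94 points, against 24.6 points for the 15 windows themselves. The 8 neighbours that were directly adjacent differed by -0.811 to 5.93 points. Of the 30 neighbours 18 went in the direction of their window, and the share of all interval windows higher in HCR was 62.6%. Within 20 kb there were 114 measured neighbours, none of them called or separated. Over all windows 0.569% were called and 0.71% separated, so the absence of such windows among 114 does not set these neighbours apart. Of the 114 neighbours 4 differed by at least 10 points, at 11.5, 12.1, 14.7 and 16.96 points. These 4 lay 8 to 18 kb away from 6833001, 8603001, 8280001 and 8664001, and all went in the direction of their window. At 6500001, for example, the window 1 kb before it had 72.1% in HCR and 72.9% in LCR, and the window 6 kb after it 0.482% in HCR and 0.299% in LCR.

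The distance from the 15 windows to the nearest window with a mean level under 10% ranged from 1 to 91 kb. It was at most 10 kb for 8 of them, against 219 of the other 689 windows of 10% or more (31.8%), and 2 of them had such a window directly beside them. The window directly before 10232001 had 2.38% in HCR and 1.78% in LCR, and the one before 9111001 had 10.1% in HCR and 6.19% in LCR. The window 2 kb before 9428001 had 3.70% in HCR and 4.44% in LCR. Within the low windows themselves, 0 of 179 were called by limma or separated, and 18 had an unadjusted p under 0.05 (10.1%). Of the 36138 low windows of the file 0.244% were called, 0.362% were separated and 9.29% had an unadjusted p under 0.05. At these shares fewer than 1 of 179 windows would be called and fewer than 1 separated, so the count of 0 does not set the interval apart.

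**Figure D3:**
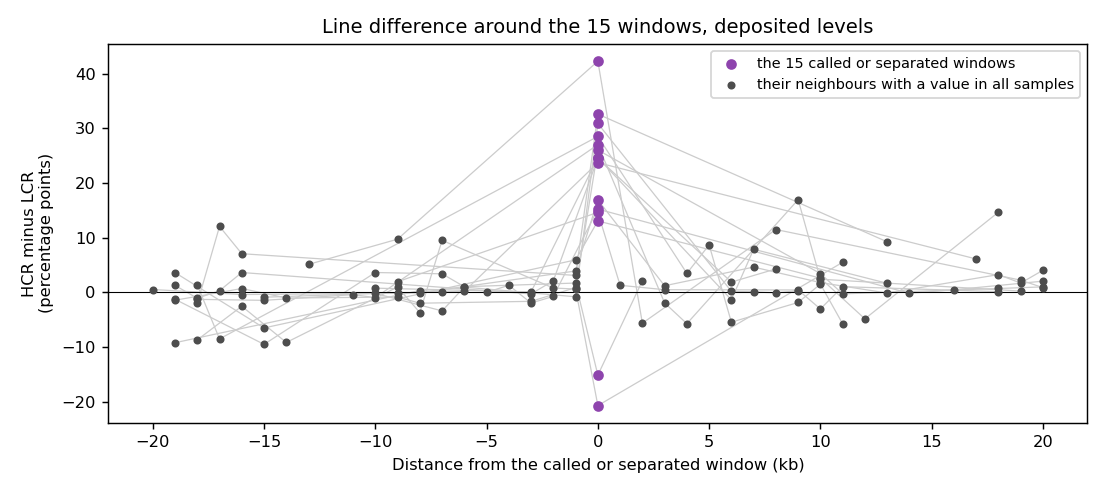
Difference between the lines (HCR minus LCR, percentage points, deposited levels) in the 15 called or separated windows (purple, at 0 kb) and in the 114 windows within 20 kb that had a value in all samples (grey), against distance in kb; grey lines join windows around the same centre. The centres reach 42.3 points and their nearest neighbours lie between -8.52 and 9.73 points.

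By level, separated windows were mostly of middle methylation. The level was the mean over both lines, which a large line difference keeps away from the ends of the scale. Of the 211 windows with a mean of 30 to 50%, 6 were separated (2.84%), against 0.877% of such windows in the file. The classes of 10 to 30%, 50 to 70% and at least 70% held 2, 1 and 1. Over the class of 30 to 50% the 6 HCR samples had a mean level of 42.3% (SD 2.60), and the 8 LCR samples one of 40.3% (SD 2.21). In the whole file the separated share was 0.943% at 10 to 30%, 0.754% at 50 to 70% and 0.762% above.

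The 15 windows were picked by their line differences and 13 of them were higher in HCR. A smaller interval difference without them was therefore built in. Without them, the interval difference was 0.933 points as deposited and -0.197 points centred. The bin at 8.5 to 9 Mb stood at -0.0487 points centred in place of 0.718, and the bin at 6.5 to 7 Mb at -0.650 in place of 0.733. The bins at 7.5 to 8 Mb (0.638 points, no called or separated window), 8 to 8.5 Mb (0.419 points), 9 to 9.5 Mb (0.461 points) and 9.5 to 10 Mb (0.254 points) stayed above 0.

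A difference of at least 15 points between the line means was found in 20 windows (2.27%), 15 higher and 5 lower in HCR, against 1.02% over all windows (0.719% higher and 0.304% lower). Of these 13 are among the windows above, and the other 7 had overlapping lines and were not called. The median SD of these 7 windows was 14.3 points in HCR and 6.86 points in LCR. Overlapping lines with means so far apart need a wide spread in some line, so a wide spread was built in. It was wider in LCR than in HCR at 6854001 and 6891001. At 7969001 to 7970000 HCR samples had 0%, 24.0% and 59.2% as lowest, median and highest, while LCR samples had 0%, 0% and 8.47%. At 10914001 to 10915000 HCR samples had 16.1%, 47.2% and 55.3% and LCR samples 51.9%, 63.3% and 69.8%, a difference of -18.7 points. These windows were chosen as those past 15 points after the values were seen.

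Spread within single lines was slightly larger in the interval than in the file. For windows of 30 to 70% the median SD was 6.28 points in HCR and 5.96 points in LCR (450 windows), against 5.96 and 5.90 points over all 59824 such windows. A range of at least 40 points among the samples of a line was seen in 24 windows for HCR (2.72%) and 23 for LCR (2.60%), against 2.10% and 2.12% over all windows. In 2 windows (0.227%) it was seen in both lines, a lower share than the 0.434% over all windows. At 10369001 to 10370000 the HCR samples lay between 12.5% and 55.9%, and the LCR samples between 14.9% and 63.3%. At 7952001 to 7953000 the ranges were 9.14 to 55.95% in HCR and 11.9 to 57.8% in LCR.

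Deviations from the line mean were shared weakly between adjacent windows and hardly at all beyond. Over 262 adjacent pairs, Pearson's r across the 14 samples with line means removed had a median of 0.12, with 0.18 within HCR (n = 6) and 0.11 within LCR (n = 8). The rest of chromosome 17 gave 0.06 (806 pairs) and the other autosomes 0.07 (31384 pairs). At over 1 to 10 kb the interval's median was 0.03, at over 10 to 100 kb 0.03 and at over 100 kb to 1 Mb 0.03. All windows of a library share its depth, conversion and mean level, and these medians are given as a description. Of the adjacent pairs 11.8% had an r over 0.5 in the interval, and 9.28% on the other autosomes.

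Centred, the order turned round over windows of all levels: adjacent pairs had a median r of 0.18 in the interval, 0.35 on the rest of chromosome 17 and 0.27 on the other autosomes. Of these pairs 26.3% had an r over 0.5 in the interval, against 39.8% on the rest of chromosome 17 and 34.2% on the other autosomes. The effect of centring differed by level. Among windows of at least 10%, the median r of adjacent pairs was 0.11 as deposited and 0.06 centred (154 pairs). Centred, such pairs had 0.04 on the rest of chromosome 17 and 0.04 on the other autosomes, so the order did not turn round there. Among interval windows under 10%, the median r of adjacent pairs was 0.16 as deposited and 0.74 centred (66 pairs). At over 100 kb to 1 Mb it was 0.03 as deposited and 0.50 centred. Centring subtracts 1 value per library from every window, so low windows then share that value. Adjacent low pairs were 66 of 262 in the interval, 362 of 806 on the rest of chromosome 17 and 12016 of 31384 on the other autosomes. On the other autosomes their median r was 0.06 as deposited and 0.74 centred. The line differences of adjacent windows themselves correlated at 0.17 across the 262 pairs, and at -0.00083 at over 1 to 10 kb. The other autosomes gave 0.17 and 0.04, and pairs of windows are not independent.

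**Figure D4:**
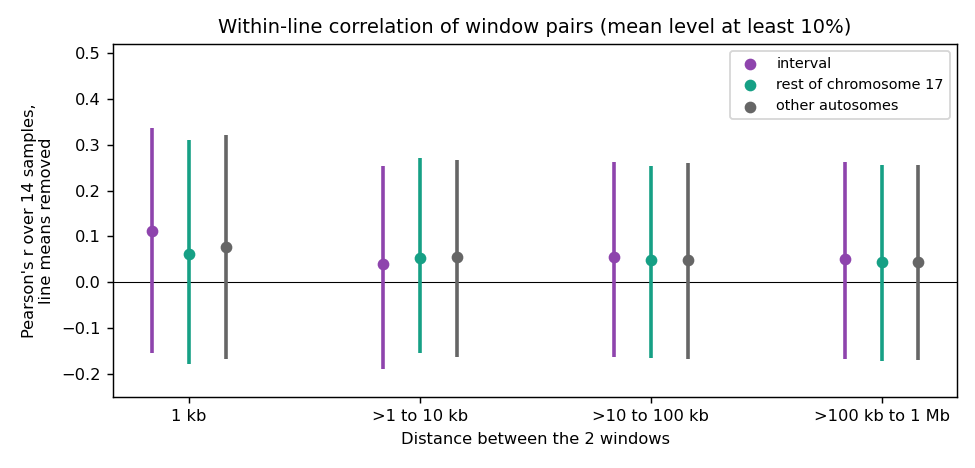
Pearson's r of pairs of windows over 14 samples with line means removed, by distance, for windows of at least 10% methylation and deposited levels; points are medians and bars run between the quartiles. Adjacent windows of the interval have a median of 0.11, and the medians at larger distances lie near those of the rest of chromosome 17 and the other autosomes.

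Deviations from the line means were weakly shared among the 10 separated windows as deposited. The 45 pairs of these windows had a median r of 0.13 as deposited and 0.04 centred, and r ran from -0.55 to 0.73 as deposited. Over the 105 pairs of all 15 windows the median was 0.01 as deposited and -0.04 centred. Over all 15 windows and centred levels, HCR replicate 2 lay on the LCR side of its line mean in 12 of 15 windows, by 2.67 points on average. LCR replicates 5 and 8 lay on the HCR side in 9 windows each, by 3.16 and 2.79 points, and LCR replicate 4 in 10, although its mean deviation of -0.890 points was away from HCR. As deposited, LCR replicate 5 was the LCR sample nearest to HCR in 6 of the 15 windows and HCR replicate 2 the HCR sample nearest to LCR in 5. No sample stood on the side of the other line throughout.

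The 340 windows that lacked a value in 1 or more samples were not used above. They had at least 4 samples of each line, with a mean level of 49.9% in HCR and 49.2% in LCR. The samples present were fully separated in 4 of them (1.18%), 3 higher and 1 lower in HCR, against 1.24% of such windows in the file, and fewer samples are separated more easily. At 9510001 to 9511000 HCR samples had 70.1%, 71.8% and 72.6% (n = 5), and LCR samples 28.7%, 54.9% and 62.8% (n = 8). At 7055001 to 7056000 the levels were 30.6%, 36.0% and 56.9% in HCR (n = 5) and 13.2%, 20.8% and 23.8% in LCR (n = 6). These values were chosen after they were seen.

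The number of windows without a value was the measure of the interval that its choice did not use. HCR samples lacked 29, 61 and 91 of the 1223 windows as lowest, median and highest, and LCR samples 10, 52.5 and 122. The lines overlapped, and the mean share was 4.93% for the 6 HCR samples (SD 1.87) and 4.08% for the 8 LCR samples (SD 3.12). The difference of 0.855 points did not pass the exact permutation test (two-sided, 3003 splits, p = 0.563).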

How the data were processed

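Per the labels' protocols, RRBS libraries were made from 100 ng of DNA with a Diagenode kit, and per the submitters' processing notes trimming used Trim Galore 0.6.10, and Bismark with Bowtie2 and the rn7 build are named for the alignment. The deposited table holds the percent methylation of 14 libraries in 1000 bp windows, without read counts; for the coverage minimum and the way windows were formed, the sources used here say nothing. Depth is therefore unknown, and errors are spreads between samples. A window that averages other CpGs in another library can differ in level for that reason alone.

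Levels were compared as log2((level + 0.01)/(1 - level + 0.01)), with level as a fraction, in limma 3.58.1 (R 4.3.3) with a variance trend, line as only factor and Benjamini-Hochberg adjustment over 135802 windows; the fit was tested on simulated data. Centred levels are deposited levels minus the library's mean over windows on the 20 autosomes, plus the mean of these means, so differences stay in points. Other steps used Python 3.11.15, numpy 2.4.6 and pandas 2.3.3. Separation counts, bins, flanks and correlations have no test. Named windows were the 12 separated windows with the largest differences, the 4 largest lower in HCR and any within 2 kb of another, which covered all 10. The members, lists and rules were chosen with earlier results of these data known. The lines share replicate numbers 1 to 6, which no label ties to a common animal, litter or day.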

Additional observations from a re-analysis of the deposited data

Results flagged for a closer look

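In the window at 9428001 to 9429000, LCR replicate 8 stood apart from its line, with 46.96% methylation against 53.2% to 55.1% in the other LCR samples. The gap between it and its neighbour took up 0.775 of the range of the line. Without it the lines differed by 14.3 points, and with it by 15.2 points. They were separated either way, because it lay on the side away from HCR. It was the only case in 36 tests (the 15 windows, 2 interval means and the missing share, by line), and chance alone flags about 1 group in 20.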

How the results depend on the processing

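The count of called windows was 7 without moderation of the variance (0.468% over all windows) and 2 with the replicate block (0.0523% over all windows), against 13. The 12 samples numbered 1 to 6, fitted without the block and added after seeing the data, gave 10 (0.327% over all windows). Same-numbered samples deviated together by r of -0.03 to 0.03 and 1 of 6 HCR samples correlated best with its own number, so the numbers were not taken as pairs. Leaving out each sample gave 8 to 15 called windows (0.365% to 0.493% over all windows) and 10 to 17 separated windows (0.853% to 1.11% over all windows). The interval differences were then 0.969 to 1.72 points and the differences in missing share 0.354 to 1.70 points (exact permutation p from 0.154 to 0.821). The interval difference was 0.109 points centred and 0.0331 after quantile normalization. For the 15 windows, all 240 recomputed differences kept their direction and moved by less than 1 SD. This was largely fixed in advance. Leaving out 1 of 6 or 8 samples cannot move a line mean that far, and the windows were picked for large differences. Unknown depth limits what single windows show.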
